A study of Mus musculus with 12 samples.

Results

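SMAD proteins carry signals of the TGF-beta family from receptors at the cell surface to genes in the nucleus, and the corepressors SKI and SnoN restrain them there. The 10 genes described here are the 8 mouse SMAD genes (Smad1 to Smad7 and Smad9) and the corepressor genes Ski and Skil, chosen by their symbols among the 23253 genes of the deposited table. All 10 were in the table, and 9 had enough reads to be tested, Smad6 being the exception. Receptor-regulated SMADs are phosphorylated by the receptor kinases: SMAD2 and SMAD3 after TGF-beta and activin, and SMAD1, SMAD5 and SMAD9 after bone morphogenetic proteins (BMPs). They then join SMAD4, the common partner of both branches, and bind DNA. SMAD6 and SMAD7 are inhibitory SMADs that block the receptors and are themselves switched on by the pathway, and SKI and SnoN, the product of Skil, bring histone deacetylase complexes to the SMADs at their target genes.

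The series asks what GDF10, a secreted member of the TGF-beta family, does in axonal sprouting and recovery after stroke. RNA was sequenced in 12 libraries from C57BL/6 mice, labelled as cortical neurons sorted by flow cytometry, with 3 libraries in each of 4 groups. Adult control came from wild-type adults without stroke (libraries 1 to 3), and stroke from adults with a focal lesion of 2 mm, made by 15 min of illumination after the light-sensitive dye rose bengal (libraries 4 to 6). The siRNA-labelled stroke group is described as having stroke and GDF10 siRNA (libraries 1 to 3), and P4 as a further control (libraries 4 to 6). For the siRNA-labelled group, the library titles and the authors' deposited comparisons name only GDF10, without siRNA. Its Gdf10 counts, given below, do not settle which applies. The labels do not spell out P4 and carry the same text on adult mice for it, do not give the time between lesion and tissue, the route of the siRNA or the sort marker, and do not say whether the libraries of a group came from separate animals. The p-values therefore measure the spread between these libraries, which may be technical. Below, the libraries outside P4 are called adult, a reading of the name P4 that the labels do not state.

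Total counts ranged from 10517638 to 48633350 per library, and log2 levels of libraries of the same group correlated at 0.681 to 0.989. Neuron markers took 0.146 to 0.733% of counts, and oligodendrocyte markers took 3.43 to 9.97% in the 9 adult libraries, so the content of these libraries goes against a pure neuronal label. Gdf10 itself had 189, 241 and 33 counts in P4, 0, 5 and 0 in stroke, 8, 7 and 1 in siRNA-labelled stroke, and 15, 21 and 0 for adult control, so its counts do not show a lower level under the siRNA label. Xist, the RNA of the inactive X chromosome, was at 2045 to 3649 CPM in P4 and at 3.23 to 193 CPM in adult control. In stroke it was at 2.50 to 3.97 CPM. Ddx3y, a gene of the Y chromosome, was at 0.0562, 33.5 and 148 CPM in P4 libraries 4, 5 and 6. It was at 109 to 474 CPM in adult control and at 116 to 160 CPM in stroke. P4 is thus not matched to adult control or to stroke for sex markers. Numbers 1 to 3 against 4 to 6 follow the groups in stroke against adult control, in siRNA-labelled stroke against stroke and in P4 against adult control, where such a batch and the group cannot be told apart.

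Inhibitory SMADs are classical targets of their own pathway, and a palindromic SMAD binding element in a promoter is the textbook example of how SMADs reach DNA. RefSeq (GRCm38.p6) gave promoter windows of 300 bases for 6 of the 10 genes, at 8 start sites: Smad1, Smad3, Smad5, Smad6, Smad9 and Ski. Both strands were searched for the palindrome GTCTAGAC, for the shorter SMAD box CAGAC and for GGCGCC, an element bound by BMP-branch SMADs. GTCTAGAC and GGCGCC read the same on both strands, and no match overlapped that of another motif in these windows. Smad7, the other inhibitory SMAD, had no window and was not searched, nor were Smad2, Smad4 and Skil. The palindrome was in the window of Smad6 and no other of the 6 genes, against 0.213% of 32841 promoters. GGCGCC was in those of Smad5, Smad9 and Ski, against 11.9%, and CAGAC in that of Smad5, against 49.6%. The lines below show 30 bases around each match, 5′ to 3′ on the strand of the gene, with the motif in capitals. A match is a run of letters and not a measured binding site.
Smad6 (chr9:64022045-64022074, minus strand): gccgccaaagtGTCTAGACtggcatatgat
Smad5 (chr13:56703021-56703050, plus strand): ccccggcgagcgGGCGCCgagcgcttgtcc
Smad5 (chr13:56703635-56703664, plus strand): cgtgcccaagttCAGACtccatcccctccc
Smad9 (chr3:54755519-54755548, plus strand): gcacggccgcctGGCGCCcttccagcgcgg
Ski (chr4:155222738-155222767, minus strand): gcgcgtggatgtGGCGCCgggcccgggcgg

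Of the 9 tested genes, Smad7 had the largest fold difference between group means, and it was the P4 libraries that stood apart. Smad7 (chromosome 18, 75367365 to 75395935, mm10) encodes the inhibitory SMAD that brings ubiquitin ligases to the TGF-beta receptor. The P4 libraries held 8.01, 6.32 and 4.94 CPM of it, the adult controls 53.0, 63.6 and 33.9 CPM, the stroke libraries 118, 90.3 and 67.6 CPM, and the siRNA-labelled ones 87.8, 78.5 and 92.7 CPM. CPM are a gene's counts as a share of all counts of the library, after scaling between libraries. Every P4 library lay below every adult library, and no stroke library, with or without the siRNA label, overlapped adult control. In order of their means, the groups stood at 92.0 ± 25.3 CPM in stroke, 86.3 ± 7.22 in siRNA-labelled stroke, 50.1 ± 15.1 in adult control and 6.43 ± 1.54 in P4 (SD, n = 3 each).

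**Figure D1:**
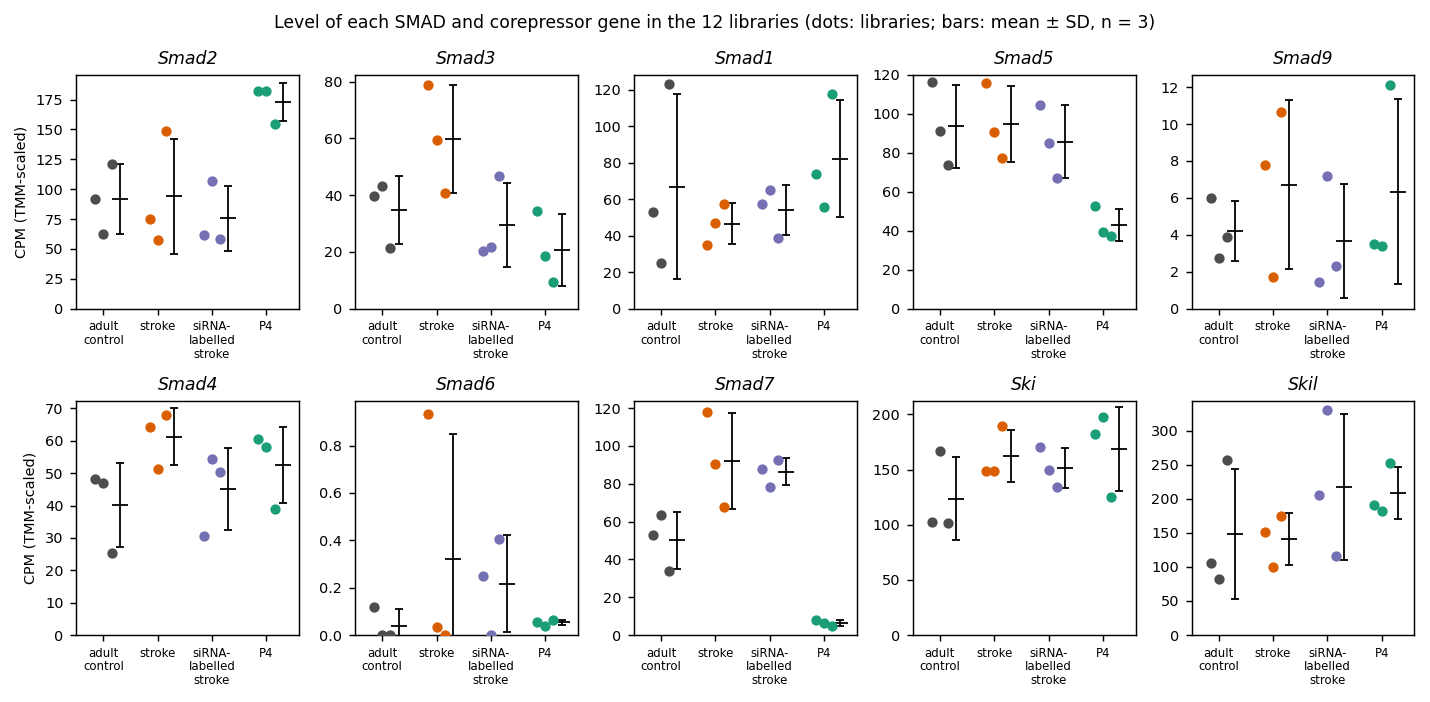
Level of each gene in CPM (vertical axes, one scale per gene, starting at 0) in the 12 libraries, with dots for libraries and bars for the mean and SD of the 3 libraries of a group. Smad7 lies at 4.94 to 8.01 CPM in P4 and at 33.9 CPM or more in the 9 adult libraries, and Smad5 is also lowest in P4.

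Which SMAD genes differed between the P4 and adult control libraries was asked first. Smad7 and Smad5 fell and none rose among the 9 tested genes, where 16.8% of all 17909 genes tested changed (6.32% higher and 10.4% lower). Smad7 was 7.79-fold lower in P4 (log2 fold change -2.96, SE 0.39, adjusted p = 8.2e-05, edgeR quasi-likelihood test with Benjamini-Hochberg adjustment). That call was kept in each of 11 other fits, at log2 fold changes from -3.17 to -2.74. Smad5 (chromosome 13, 56703010 to 56742378) encodes a SMAD of the BMP branch. Its level was 52.6, 39.1 and 37.3 CPM in P4 and 116, 91.0 and 73.7 CPM in adult control, and the groups did not overlap. It was 2.18-fold lower in P4 (log2 fold change -1.12, SE 0.33, adjusted p = 0.03). This call was less firm: it was lost without adult control 1 (adjusted p = 0.122), adult control 2 (0.0534), P4 4 (0.0562), P4 5 (0.127) or P4 6 (0.0843), in a fit of the 2 groups alone (0.11) and without a filter on low counts (0.0509), always as a lower level in P4.

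Genes of oligodendrocytes, which form myelin, were also far lower in P4. The 10 markers of these cells all had counts in P4, 1 of them at under 1 CPM, and together took 0.0103 to 0.0274% of counts there against 3.43 to 9.09% in adult control. Astrocyte markers took 0.0322 to 0.0568% against 0.415 to 0.616%, and microglia and macrophage markers 0.00215 to 0.00395% against 0.0726 to 0.102%. Neuron markers took 0.572 to 0.733% in P4 and 0.202 to 0.599% in adult control. The part of cell content in the lower Smad7 and Smad5 was not tested, and in such bulk libraries fewer cells of a type and less RNA per cell cannot be told apart. Of the 3 adult controls, library 3 had the highest share of counts on oligodendrocyte markers, at 9.09%, and the lowest Smad7, at 33.9 CPM. This is a single library, with the fewest total counts of all (10517638). In stroke libraries 4, 5 and 6 the shares were 5.89, 5.58 and 4.84%, and Smad7 was at 118, 90.3 and 67.6 CPM. In siRNA-labelled libraries 1, 2 and 3 the shares were 9.97, 9.23 and 5.86%, and Smad7 was at 87.8, 78.5 and 92.7 CPM. A link between the shares and Smad7 was not tested.

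**Figure D2:**
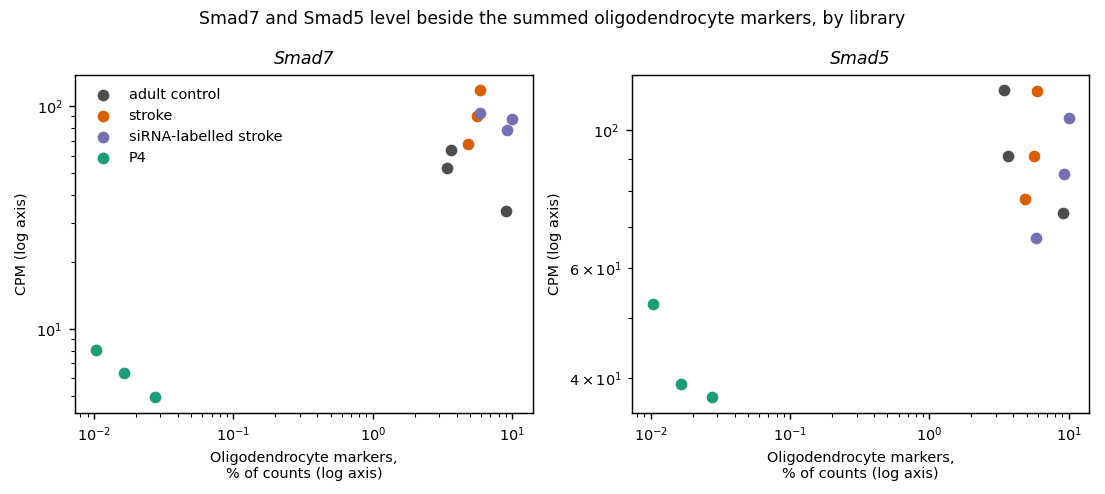
Smad7 (left) and Smad5 (right) level in CPM against the summed share of 10 oligodendrocyte markers in each of the 12 libraries, on log axes, with colours for the groups. P4 lies at the lower left with 0.0103 to 0.0274% of counts on the markers, and the 9 adult libraries lie at 3.43 to 9.97%.

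The TGF-beta branch SMADs pointed in opposite directions in P4, without either passing the test. Smad2 (chromosome 18, 76241090 to 76311748) was at 182, 182 and 155 CPM in P4 and at 91.5, 62.4 and 121 CPM in adult control, with no overlap between the groups. The log2 fold change was 0.92 (95% interval 0.06 to 1.77, adjusted p = 0.141), and it passed when the library with the fewest counts was left out of each group (1.36, adjusted p = 0.0272), an alternative chosen after seeing the data. Smad3 (chromosome 9, 63646766 to 63757994) was at 34.4, 18.5 and 9.44 CPM in P4 and at 39.7, 43.3 and 21.2 CPM in adult control, so the groups overlapped (log2 fold change -0.74, 95% interval -1.85 to 0.37, adjusted p = 0.381). Per exon length, Smad2 stood at 3.34, 6.23 and 10.4 times the level of Smad3 in the P4 libraries 4, 5 and 6. That ratio was 0.603, 0.614 and 2.30 for stroke, 1.92, 3.13 and 0.785 for siRNA-labelled stroke, and 1.46, 0.909 and 3.61 for adult control. The lowest P4 ratio, 3.34, was thus below the 3.61 of adult control 3, which had the lowest total count.

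The other SMADs of the BMP branch, the common SMAD and the corepressors did not pass in P4 against adult control. Smad1 (chromosome 8, 79338395 to 79399428), the best known BMP-branch SMAD, was at 73.6, 55.8 and 118 CPM in P4 and at 52.8, 25.1 and 123 CPM in adult control (log2 fold change 0.30, adjusted p = 0.745). Smad9 (chromosome 3, 54755455 to 54801662), its least expressed relative here, was at 3.48, 3.41 and 12.1 CPM against 5.99, 2.76 and 3.88 CPM (0.58, 95% interval -1.29 to 2.46). Smad4 (chromosome 18, 73634790 to 73703791) was at 60.7, 58.0 and 38.9 CPM against 48.3, 47.1 and 25.3 CPM (0.38, adjusted p = 0.553). The ranges of all 3 genes overlapped between the groups, and the interval of Smad9 spans several-fold changes either way. Ski (chromosome 4, 155154075 to 155222535) was at 182, 197 and 125 CPM in P4 and at 102, 167 and 102 CPM in adult control (0.45, adjusted p = 0.374). Skil (chromosome 3, 31095058 to 31122923) was at 191, 182 and 253 CPM against 105, 81.7 and 257 CPM (0.50, adjusted p = 0.514), and the highest adult control value is again library 3. Over the 9 tested genes the median log2 fold change was 0.38, against -0.16 over all genes tested. Smad7, Smad5 and Smad2 were the 3 genes without overlap in this comparison, beside 32.1% of all genes, and the 3 with an unadjusted p under 0.05, beside 29.3%.

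Smad6 (chromosome 9, 63953076 to 64022085), the inhibitory SMAD that acts mainly on the BMP branch and whose window holds the palindrome shown above, was near the limit of detection. Counts were 3, 2 and 1 in P4, 27, 1 and 0 for stroke, 4, 0 and 14 for siRNA-labelled stroke, and 3, 0 and 0 for adult control. Of the 28 counts in stroke, 27 were in library 4, so no group level is given and no difference was detectable at this depth. Endothelial markers, genes of the vessel lining where Smad6 is known to be active, were low too, at 0.00029 to 0.00355% of counts over the 12 libraries. Of the 10 endothelial markers, 9 had counts in adult control and in siRNA-labelled stroke, where Cldn5 had none. All 10 had counts in stroke and in P4. Those with a group mean under 1 CPM numbered 9 in P4, 5 in stroke, 2 in adult control and 2 in siRNA-labelled stroke. The part of these cells in the Smad6 counts was not tested.

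Set beside each other per exon length, the inhibitory SMADs made up 2.42 ± 0.419% of all SMAD transcripts in P4, 17.8 ± 6.02% of those of adult control, 25.5 ± 5.81% of those of stroke and 29.2 ± 4.19% under the siRNA label (SD, n = 3 each). Nearly all of this was Smad7. Smad2 and Smad3 together made up 39.6 ± 4.93, 26.6 ± 1.50, 26.9 ± 3.36 and 21.0 ± 3.25% in the same order of groups. The BMP-branch SMADs took 26.5 to 45.7, 28.7 to 48.7, 25.4 to 28.2 and 24.1 to 38.0%, and here adult control (28.7% or more) and stroke (28.2% or less) did not overlap, while the other pairs of groups did. The summed level of the 8 genes was 55.9 to 64.6 RPKM (CPM per 1000 bases of exon) in P4, 58.5 to 67.5 RPKM for adult control, 71.1 to 89.3 RPKM for stroke and 62.1 to 71.3 RPKM under the siRNA label. Stroke lay above every P4 and adult control library. By mean RPKM, Ski led in each of the 4 groups. Smad7 was second in stroke at 20.4 ± 5.61 RPKM and eighth in P4 at 1.42 ± 0.34 RPKM, next to Smad9 at 1.18 ± 0.931, from which it did not differ beyond the spread. In adult control, Smad5, Smad7, Smad4, Smad1 and Smad2 lay between 10.4 and 12.6 RPKM, closer together than their spread over libraries.

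**Figure D3:**
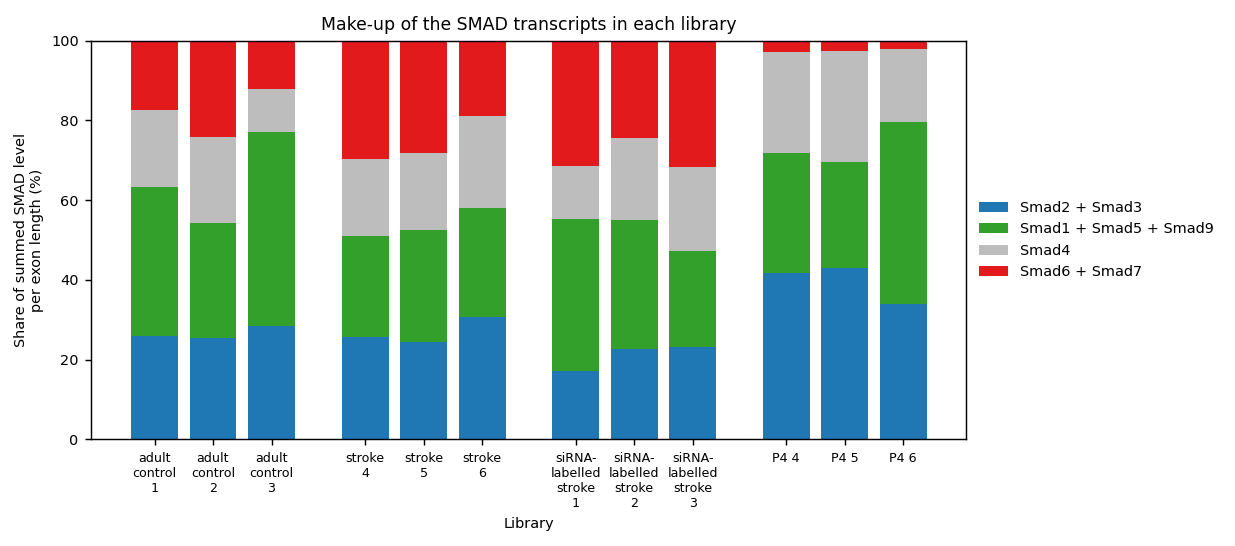
Share of the summed level of the 8 SMAD genes per exon length (vertical axis, percent) taken by each functional class, with 1 bar per library. Smad6 and Smad7 take 1.95 to 2.77% in P4 and 12.03 to 31.8% in the 9 adult libraries.

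In stroke against adult control the question was whether the SMAD genes moved with the injury. None of the 9 tested genes passed with edgeR or with DESeq2, where edgeR called 0.704% of all genes tested (0.486% higher and 0.218% lower). Only Smad7 had an unadjusted p under 0.05, as did 15.9% of all genes. Smad7 was at 67.6 to 118 CPM in stroke and at 33.9 to 63.6 CPM in adult control, without overlap (log2 fold change 0.87, SE 0.36, 95% interval 0.11 to 1.64, adjusted p = 0.261). Smad4 did not overlap either, at 64.4, 51.2 and 68.1 CPM in stroke against 48.3, 47.1 and 25.3 CPM (0.60, SE 0.38, adjusted p = 0.456). Those 2 of 9 genes without overlap compare with 20.0% of all genes tested. Astrocyte markers took 0.0807 to 0.119% of counts in stroke and 0.415 to 0.616% in adult control. Neuron markers took 0.148 to 0.188% in stroke and 0.202 to 0.599% in adult control, also without overlap. The part of these cell types in the Smad7 and Smad4 levels was not tested.

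Smad3, the TGF-beta branch SMAD most tied to transcription in injured tissue, was at 78.9, 59.4 and 40.8 CPM in stroke. Against adult control its log2 fold change was 0.78 (95% interval -0.33 to 1.89, adjusted p = 0.482), and stroke 6 lay below adult control 2. Smad2 was at 75.4, 57.8 and 149 CPM in stroke (0.04, 95% interval -0.81 to 0.89) and Smad5 at 116, 90.7 and 77.5 CPM (0.02, 95% interval -0.68 to 0.71). The mean levels of these 2 genes were thus nearly equal in both groups, with intervals that reach past 0.68 on the log2 scale either way. Smad1 was at 35.2, 46.9 and 57.7 CPM (-0.52, adjusted p = 0.638) and Smad9 at 7.80, 1.70 and 10.6 CPM (0.67, adjusted p = 0.732). Ski was at 149, 149 and 189 CPM (0.39, adjusted p = 0.558) and Skil at 151, 99.4 and 174 CPM (-0.07, adjusted p = 0.959). The directions of Smad1 and Skil turned without adult control 3, to 0.26 and 0.60. DESeq2's size factors moved the median of all genes by -0.1 in this comparison, from -0.08 to -0.19, and turned the directions of Smad2 and Smad5 to -0.11 and -0.09. In stroke against P4 the shift was -0.13, and it turned Smad9 to -0.08.

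**Figure D4:**
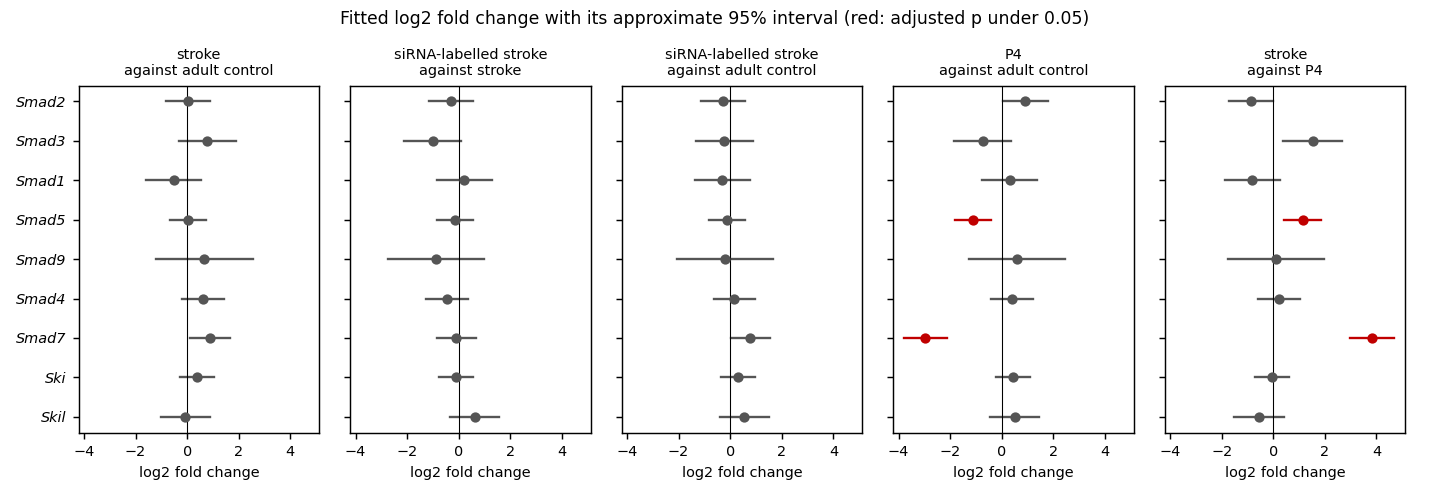
Fitted log2 fold change (horizontal axes) of the 9 tested genes in 5 comparisons, with bars for the approximate 95% interval and red for an adjusted p under 0.05. Smad7 and Smad5 pass in both comparisons that hold P4, and no gene passes among the adult groups.

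What the GDF10 siRNA label went with was asked in siRNA-labelled stroke against stroke. No SMAD or corepressor gene passed with edgeR or DESeq2, and none had an unadjusted p under 0.05. Across all genes tested edgeR called 1 gene, or 0.00558%, and 7.37% had an unadjusted p under 0.05. Smad3 had the smallest p of the 9. It was at 20.3, 21.6 and 46.7 CPM in the siRNA-labelled libraries, against 40.8 to 78.9 CPM in stroke (log2 fold change -1.02, 95% interval -2.13 to 0.10, unadjusted p = 0.0712, adjusted p = 0.695). Libraries 1 and 2 lay below all stroke libraries and library 3 within them. The 45S ribosomal RNA precursor took 0.329 and 0.304% of counts in siRNA-labelled libraries 1 and 2, 2.72% in library 3 and 2.11 to 2.44% in stroke. Microglia and macrophage markers took 0.143 to 0.266% under the siRNA label and 0.0335 to 0.113% in stroke. Markers of oligodendrocyte precursors went the other way, at 0.199 to 0.304% under the siRNA label and 0.388 to 0.545% in stroke. The part of the ribosomal RNA precursor or of these cell types in the Smad3 levels was not tested.

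Skil was at 206, 330 and 116 CPM under the siRNA label (log2 fold change 0.62, adjusted p = 0.781), and the groups overlapped. Smad7 stayed at 78.5 to 92.7 CPM, inside the range of stroke (-0.09, 95% interval -0.86 to 0.67). Ski was at 170, 150 and 134 CPM (-0.10, 95% interval -0.76 to 0.56) and Smad5 at 105, 84.9 and 67.2 CPM (-0.15, 95% interval -0.84 to 0.55). The remaining log2 fold changes were -0.44 for Smad4, -0.31 for Smad2, -0.88 for Smad9 and 0.21 for Smad1, with adjusted p from 0.823 to 0.941. None of the 9 genes was free of overlap, against 15.9% of all genes tested.

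Against adult control, the siRNA-labelled stroke libraries gave no call among the 9 genes with edgeR or DESeq2, where edgeR called 0.117% of all genes (0.0838% higher and 0.0335% lower). Smad7 was the 1 gene of 9 without overlap, against 10.8% of all genes, and the 1 with an unadjusted p under 0.05, against 8.36%. Its log2 fold change was 0.78 (95% interval 0.01 to 1.55, unadjusted p = 0.0464, adjusted p = 0.588). The Smad7 values of both stroke groups against adult control, 0.87 and 0.78, share the 3 control libraries and are not independent. Skil stood at 0.55, Ski at 0.29, Smad4 at 0.16, Smad5 at -0.13, Smad9 at -0.21, Smad3 at -0.24, Smad2 at -0.28 and Smad1 at -0.31, with adjusted p of 0.821 to 0.978.

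Stroke was set against P4 to ask how far the stroke libraries lay from those of P4. Smad7 and Smad5 rose and none fell among the 9 genes, where 18.8% of all genes changed (10.8% higher and 7.94% lower). This comparison shares the P4 libraries with P4 against adult control, and oligodendrocyte markers took 4.84 to 5.89% of counts in stroke. Smad7 was 14.3-fold higher in stroke (log2 fold change 3.84, SE 0.40, adjusted p = 8.2e-06), and passed in each of 12 other fits at 3.45 to 4.03. Smad5 was 2.20-fold higher (1.14, SE 0.33, adjusted p = 0.0249), a call lost without stroke 4 (adjusted p = 0.212), stroke 5 (0.0656), P4 5 (0.106) or P4 6 (0.0765). Smad3 lay just outside the threshold at 1.52 (SE 0.53, adjusted p = 0.0591), with no overlap between 40.8 to 78.9 CPM and 9.44 to 34.4 CPM. It passed in 3 of 12 other fits: with DESeq2 (adjusted p = 0.0198), in a fit of the 2 groups alone (0.0362) and without P4 4 (0.0301). The remaining 9 fits gave no call, with an adjusted p of up to 0.292 (without stroke 4). The authors' deposited table gave Smad3 a false discovery rate of 0.0461 for this pair. Smad2 was at -0.88 (adjusted p = 0.154), without overlap. It passed without stroke 6 (-1.38, adjusted p = 0.0448) and without the library with the fewest counts in each group (-1.57, adjusted p = 0.0127). The other 10 of 12 fits gave no call for Smad2. Skil did not overlap either (-0.56, adjusted p = 0.453), which made 5 of 9 genes without overlap, against 44.4% of all genes. Smad1 (-0.82), Smad4 (0.22), Smad9 (0.09) and Ski (-0.05) did not pass.

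The authors' deposited table gave Smad7 a log2 fold change of -2.94 in P4 against adult control (false discovery rate 8.1e-09) and Smad5 one of -1.11 (0.0382). In stroke against adult control the authors' deposited table gave Smad7 0.88, with a false discovery rate of 0.258.

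Genes whose pattern over the 12 libraries lay nearest to that of Smad7 were Endod1 and Wls, the carrier that WNT proteins need to leave the cell. They were found by the root mean square difference of centred log2 CPM, which was 0.292 for Endod1 and 0.327 for Wls, while Smad7 itself had an SD of 1.65 over the libraries. Wls was at a mean of 6.06 CPM in P4, 35.5 for adult control, 55.4 for stroke and 51.9 under the siRNA label. Nearest to Smad5 were Tmem87a (0.205) and Znrf3, a ubiquitin ligase that removes WNT receptors (0.253), beside an SD of 0.555 for Smad5.

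The proteins around the SMADs were described from 6 lists, given here by their called members and not tested as lists. In the 3 comparisons among adult groups, none of the genes on these lists passed. Of the 17 SMAD ubiquitin ligases, deubiquitinases and phosphatases, 2 rose and 1 fell in P4 against adult control (median log2 fold change 0.30, against -0.16 over all genes). Over all genes tested, 6.32% were called higher and 10.4% lower, which is the background for each list in this comparison. Usp9x, which removes ubiquitin from SMAD4, was at 1064 ± 52.9 CPM in P4 and 535 ± 3.48 in adult control (log2 fold change 0.99, adjusted p = 0.0169). Nedd4l, a ligase for activated SMAD2 and SMAD3, was at 307 ± 70.5 and 134 ± 63.3 CPM (1.20, adjusted p = 0.0294). Ctdsp1, a phosphatase of the SMAD linker, was at 1.11 ± 0.111 and 14.2 ± 12.5 CPM (-3.68, adjusted p = 0.00268). Smurf1 and Smurf2, the ligases that SMAD7 carries to the receptor, did not pass.

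Of 26 tested anchors and nuclear partners of the SMADs, 8 fell and 2 rose in P4 against adult control (median -0.39), beside 10.4% lower and 6.32% higher over all genes. Hipk2, a kinase that joins the SKI corepressor complex, was at 47.4 ± 16.2 CPM in P4 against 390 ± 84.8 CPM in adult control (log2 fold change -3.04, adjusted p = 1.6e-05). Sp1, a general factor that works with SMADs at GC-rich promoters, fell by 1.75 on the log2 scale, and Zeb1, a SMAD-binding repressor, fell by 1.75. Strap, which holds SMAD7 at the receptor, rose by 1.97 (adjusted p = 0.00167). In stroke against P4, 8 of the 26 were higher and 2 lower (median 0.68, against -0.04 over all genes). Over all genes tested, 10.8% were called higher and 7.94% lower in that comparison. Hipk2 was at 3.53 there and Strap at -1.21. The Strap call in stroke against P4 was lost in 6 of 12 other fits, with an adjusted p of up to 0.167.

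Of 15 corepressor complex and coactivator genes, 1 rose and 2 fell in P4 against adult control (median -0.11), a share near the 16.8% called over all genes. Hdac2, a histone deacetylase, was at 397 ± 109 CPM in P4 and 101 ± 37.9 CPM in adult control (log2 fold change 1.98, adjusted p = 0.000832). Kat2b, an acetyltransferase that acts with SMAD3, was at 11.5 ± 1.35 and 161 ± 27.5 CPM (-3.81, adjusted p = 2.2e-06), and Ncoa3 fell by 1.08. Ncor1, the corepressor that binds SKI, and Sin3a did not pass.

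Of 13 tested receptors, 2 rose and 2 fell in P4 against adult control (median 0.14), beside 16.8% called over all genes. In stroke against P4, 1 was higher and 3 were lower (median -1.15, against -0.04 over all genes), beside 10.8% higher and 7.94% lower over all genes. In P4 against adult control, Acvr1, a BMP type I receptor, rose by 2.30 and Acvr2a, a type II receptor, by 1.45. Tgfbr2, the TGF-beta type II receptor, was at 0.814 ± 0.759 CPM in P4 and 13.7 ± 10.6 CPM in adult control (log2 fold change -4.06, adjusted p = 0.00465), and the coreceptor Tgfbr3 fell by 3.26. Among 19 tested targets of TGF-beta SMADs, Tsc22d1 (2.62) and the matrix gene Fn1 (2.66) rose, and Junb (-2.53) and Tgfbi (-3.29) fell. Among 12 tested targets of BMP SMADs, Hey2 (-3.77) and Tnfrsf11b (-4.42) fell, and none of the Id genes, the standard readout of BMP signalling, passed in this comparison. Id2 had a log2 fold change of 1.42 there (adjusted p = 0.0527) and was lower in stroke than in P4 (-1.90, adjusted p = 0.0113), a call lost without P4 6 (-1.54) or stroke 5 (-1.68). Of the 26 list genes called in P4 against adult control, 14 kept the call without each single library of the 2 groups, among them Acvr1, Ctdsp1, Foxo3, Hdac2, Hipk2, Junb, Kat2b, Runx1, Sp1, Strap, Tgfbr2, Tsc22d1 and Zeb1. Usp9x, Nedd4l, Ncoa3, Acvr2a, Tgfbr3, Fn1, Tgfbi, Hey2 and Tnfrsf11b lost it in at least 1 of those fits. In stroke against P4, 16 of the 30 called list genes kept the call without each single library, and Strap was not among them.

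**Figure D5:**
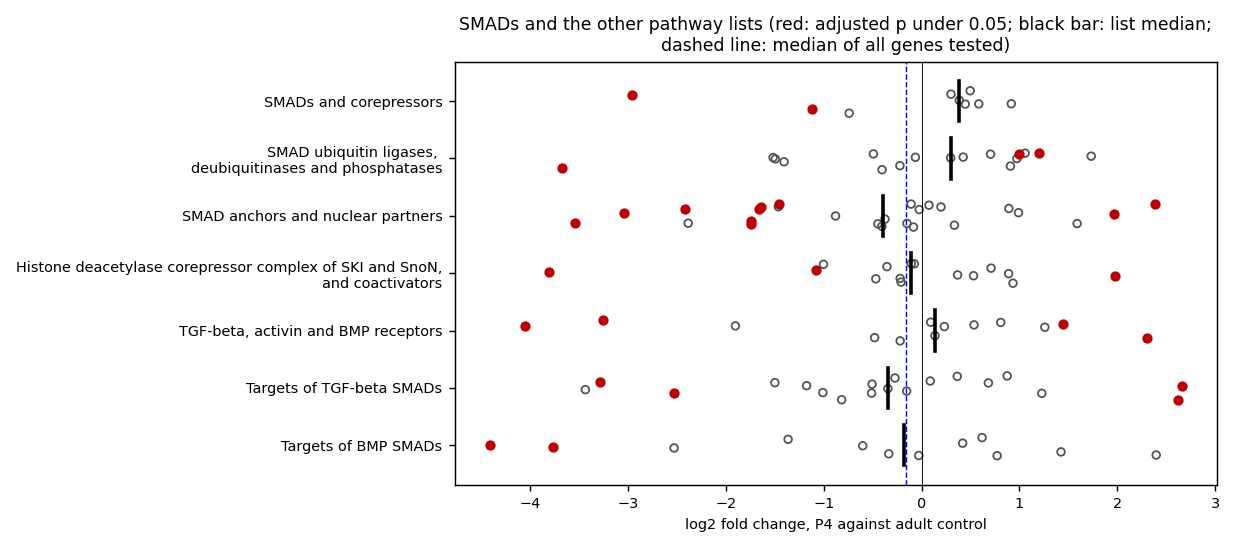
Log2 fold change in P4 against adult control (horizontal axis) of the SMADs and corepressors and of 6 pathway lists, with 1 point per gene, red for an adjusted p under 0.05, black bars for list medians and a dashed line for the median of all genes (-0.16). The lists hold called genes on both sides of 0, except the targets of BMP SMADs and the SMADs with their corepressors, where called genes lie only on the lower side.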

How the data were processed

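The labels give the RNA-Microprep kit for extraction, the Ovation RNA-seq System v2 for amplification and paired reads of 69 bp. CASAVA 1.8.2, edgeR and build mm10 stand in the submitters' processing notes. For the aligner, counter, annotation and strand setting, nothing is given in the sources used here. The authors deposited raw counts per gene, which every test used, and for each pair of groups log2 fold changes with p-values and false discovery rates. The other 30 columns of values per library were not used. One P4 column is named P3, and was matched by its number and because no other title was left for it.

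In R 4.3.3, filterByExpr left 17909 of 23253 genes. All 12 libraries were scaled with TMM and fitted with 1 mean per group by edgeR 4.0.16 (quasi-likelihood). A gene was called at an adjusted p under 0.05 (Benjamini-Hochberg, all tested genes). The SE was taken as the log2 fold change over the root of F, without sign, and 95% intervals use the t quantile of the fit. RPKM divide CPM by GENCODE M21 exon length. Positions are RefSeq's (GRCm38.p6, the same build), matched by Entrez ID. Of the 10 genes, only Smad5 shares exon bases with another annotated gene, Gm27301 (100 of 7420 bases). How reads shared by SMAD paralogs were counted is unknown. The test was tried on simulated counts.

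The members and lists were chosen with earlier results of these data known. Named genes were all 10 members, and called list genes (in comparisons with P4, at most 3 per direction and list). Nearest patterns were the 2 genes per called member among those of at least 5 CPM. Smurf1, Smurf2, Ncor1, Sin3a, the Id genes other than Id2 and, among the 14 list genes that kept their call, Foxo3 lie outside this rule and were named after their values were seen. The values of 1 called list gene are not reported here. Alternatives were DESeq2 1.42.0, its size factors, no filter, a fit of 2 groups, a replicate block and leaving out libraries.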

Additional observations from a re-analysis of the deposited data

How the results depend on the processing

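Of 513 refits of single SMAD and corepressor genes, 448 kept direction and side of the threshold, 12 lost a call, 6 gained one and 47 changed sign, none of these a called value. The Smad7 calls in P4 against adult control and in stroke against P4 were kept in all fits run, and the Smad5 calls were not. Called members numbered 1 in P4 against adult control in a fit of the 2 groups and without a filter, and 1 to 2 when single libraries were left out. In stroke against P4 they numbered 1 to 3 when single libraries were left out. Where a fit left a value changed and no value here shows why, the cause was not tested.

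Counts over all genes moved more. P4 against adult control gave 3001 calls, 4677 with DESeq2, 1639 in a fit of the 2 groups and 1852 to 3099 without single libraries. Stroke against adult control gave 126, 1414 with DESeq2 (438 higher and 976 lower, against 87 and 39), 43 in a fit of the 2 groups, and 31 (without stroke 5) to 548 (without adult control 2). The siRNA-labelled libraries against the adult controls gave 21, 13 with DESeq2's size factors, 376 with DESeq2, 0 in a fit of the 2 groups, 40 without a filter, 7 without the fewest-count libraries, and 5 (without siRNA-labelled stroke 2) to 25 (without adult control 3). siRNA-labelled stroke against stroke gave 1, then 0 with size factors, 203 with DESeq2, 88 in a fit of the 2 groups, 2 without a filter, 0 without the fewest-count libraries and 0 without any single library. DESeq2 was run with its own dispersion estimates.

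Uncalled values changed sign as follows. With size factors and with DESeq2, Smad2 (-0.11) and Smad5 (-0.086 with each) did in stroke against adult control, and Smad9 (-0.083 with size factors, -0.081 with DESeq2) in stroke against P4. In a fit of the 2 groups, Smad2 (-0.0054) and Smad5 (-0.018) did in stroke against adult control. Without the library with the fewest counts of each group, an alternative chosen after seeing the data, Skil (0.42), Smad1 (0.074), Smad2 (-0.21) and Smad5 (-0.0019) did in stroke against adult control, Smad1 (0.39), Smad2 (0.073) and Smad9 (0.084) in siRNA-labelled stroke against adult control, Smad2 (0.28) in siRNA-labelled stroke against stroke, Smad4 (-0.16) in stroke against P4 and Smad9 (-0.22) in P4 against adult control.

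Without single libraries, the values that changed sign ranged as follows. In stroke against adult control they were -0.35 to 0.60 for Skil, -0.90 to 0.26 for Smad1, -0.45 to 0.30 for Smad2 and -0.16 to 0.21 for Smad5. In siRNA-labelled stroke against adult control they were -0.70 to 0.47 for Smad1, -0.081 to 0.38 for Smad4, -0.30 to 0.056 for Smad5 and -1.15 to 0.18 for Smad9. In siRNA-labelled stroke against stroke they were -0.20 to 0.017 for Ski, -0.65 to 0.18 for Smad2, -0.32 to 0.024 for Smad5 and -0.28 to 0.13 for Smad7. In P4 against adult control they were -0.084 to 1.08 for Smad1 and -0.27 to 0.94 for Smad9, and in stroke against P4 -0.23 to 0.074 for Ski and -0.40 to 0.95 for Smad9.

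Replicate numbers showed no clear pairing of the libraries, which so few libraries per group cannot exclude. Deviations of same-numbered libraries correlated at 0.064, -0.191 and -0.336 between adult control and siRNA-labelled stroke and at 0.160, 0.0136 and 0.153 between stroke and P4. Adult control 1, stroke 4 and stroke 6 correlated best with their own number in the other group. Adult control 2, adult control 3 and stroke 5 did not. With the replicate block, siRNA-labelled stroke against adult control gave 11 calls over all genes, stroke against P4 gave 1 called member, and Smad5 lost its call there (log2 fold change 1.14, adjusted p = 0.0574), and Smad9 stood at -0.013. Depth limits Smad6, which had at most 27 counts in a library, and Smad9.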

Other observations

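The library with the fewest counts of each group was adult control 3, stroke 6, siRNA-labelled stroke 1 and P4 6. Smad3 was lowest of its group in this library in 4 of 4 groups, as were 5.01% of the 17909 genes tested. No other of the 9 tested genes was lowest there in all 4 groups, and none was highest there in all 4, as were 3.99% of all genes. The part of depth in the Smad3 levels was not tested.

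The ratio of Smad4 to Smad7 per exon length was 9.23 to 11.2 in P4 and 0.426 to 1.23 in the 9 adult libraries. The ratio of Smad1 to Smad5 was 1.66, 1.69 and 3.74 in P4, 0.36, 0.613 and 0.882 for stroke, 0.653, 0.911 and 0.683 for siRNA-labelled stroke, and 0.539, 0.327 and 1.98 for adult control, so that adult control 3 lay within the range of P4. Both ratios are descriptions and were not tested.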
